A study of Homo sapiens with 3 samples.

Results

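Mitochondrial ribosomal protein genes encode the protein part of the ribosome that works inside mitochondria. They were taken here as the protein-coding genes of the count table whose name starts with MRPL or MRPS followed by a digit, and 78 of the 58884 gene rows met that rule, 49 named MRPL and 29 named MRPS. All are genes of the nucleus, spread over 21 chromosomes. Of the 78, 75 passed the filter on low values, a mean of at least 50 counts over the libraries, and are called measured.

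The mitochondrial ribosome translates the few messenger RNAs that are transcribed from the mitochondrial chromosome, all of which encode subunits of the respiratory chain and ATP synthase. Its ribosomal RNAs are made inside the organelle, and its proteins are translated in the cytosol and imported, so that its assembly draws on both genomes. Part of its proteins descend from bacterial ribosomal proteins and part have no bacterial counterpart. Prostate epithelium and prostate cancer cells are known for a mitochondrial metabolism that differs from that of most epithelia.

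The libraries came from LNCaP, an established androgen-responsive human prostate cancer cell line. Per the labels, a preculture of 24 h was followed by 72 h in 1 of 3 conditioned media (CM), each used at 50% in medium with 2% fetal bovine serum. These were control-CM, PVAT-CM (labelled normal) and PPAT-CM (labelled tumor), where PPAT is short for periprostatic adipose tissue and PVAT is not spelled out in the labels. Each medium had 1 library and no replicate, so no test was possible, the folds compare libraries, and whether a difference exceeds the spread between cultures was not measured. Conditioned medium is a mixture, and the comparison with control-CM cannot tell its components apart. Values in sets of 3 are given in the order control-CM, PVAT-CM, PPAT-CM.

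The libraries held 14174241 to 16965584 counts. LNCaP markers were present, with 8 of 8 genes counted in each library, at summed levels of 3094, 3133 and 2232 scaled CPM (TMM-scaled counts set to 1 common library total). Of 4 adipocyte markers ADIPOQ, LEP and FABP4 were at 0 in all libraries, and PLIN1 had 13, 27 and 89 counts. Of the leukocyte markers reported here PTPRC and CD3E were at 0, and ITGAM had 1, 0 and 21 counts. Summed levels ran from 25.7 to 51.6 scaled CPM for 4 fibroblast markers, with DCN at 0, and from 1.12 to 1.90 for 3 endothelial markers, with CDH5 at 0. The mitochondrial chromosome accounted for 30.8%, 21.1% and 15.5% of counts.

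By the structural names in RefSeq, 30 of the 78 genes encode large subunit proteins with a bacterial counterpart and 21 encode large subunit proteins without one. The small subunit accounts for 16 with a bacterial counterpart and 10 without. The names do not always follow the subunit: MRPS18A and MRPS30 encode large subunit proteins and were counted there. MRPS36, now also named KGD4, encodes a part of the alpha-ketoglutarate dehydrogenase complex and not of the ribosome.

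Of the 3 genes below the filter, MRPL46, a large subunit protein, had 42, 31 and 55 counts. MRPS24, of the small subunit, had 6, 8 and 4. MRPL53, of the large subunit, had 0 in every library, which allows up to 0.198, 0.210 and 0.163 scaled CPM by counting error alone. MRPS24 shares 23.2% of its exon bases with the read-through gene URGCP-MRPS24, and MRPL53 shares 45.2% with CCDC142. In total 41 of the 78 genes share some exon bases with another gene and 26 share at least 10%, and how the authors' counting treated shared bases is not given in the sources used here.

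Levels between genes were compared per kilobase (kb) of the principal transcript, and they spanned a wide range within this 1 complex. In control-CM the 75 measured genes ran from 1.57 to 212 scaled CPM per kb, with a median of 26.7. The highest were MRPL41 (212), MRPL20 (182), MRPL18 (145), MRPS26 (139) and MRPS15 (137), and the lowest were MRPL38 (1.57), MRPS18A (1.80) and MRPS11 (2.51). Most proteins of a finished ribosome are present in equal numbers, and protein was not measured here. Over the length of all exons merged, the 5 highest were MRPL41, MRPS26, MRPS21, MRPL18 and MRPS34, and the 5 lowest were MRPL38, MRPS18A, MRPS11, MRPS18C and MRPS28.

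The spread of levels was smaller in PPAT-CM. The standard deviation (SD) of the log2 level over the 75 genes was 1.56, 1.43 and 1.31, while the median level was 26.7, 31.7 and 38.2 scaled CPM per kb. MRPL41, a mitochondria-specific large subunit protein, was at 212, 198 and 118 scaled CPM per kb, which was rank 1 in control-CM and rank 4 in PPAT-CM. At the low end MRPS11 was at 2.51, 3.75 and 5.88.

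**Figure D1:**
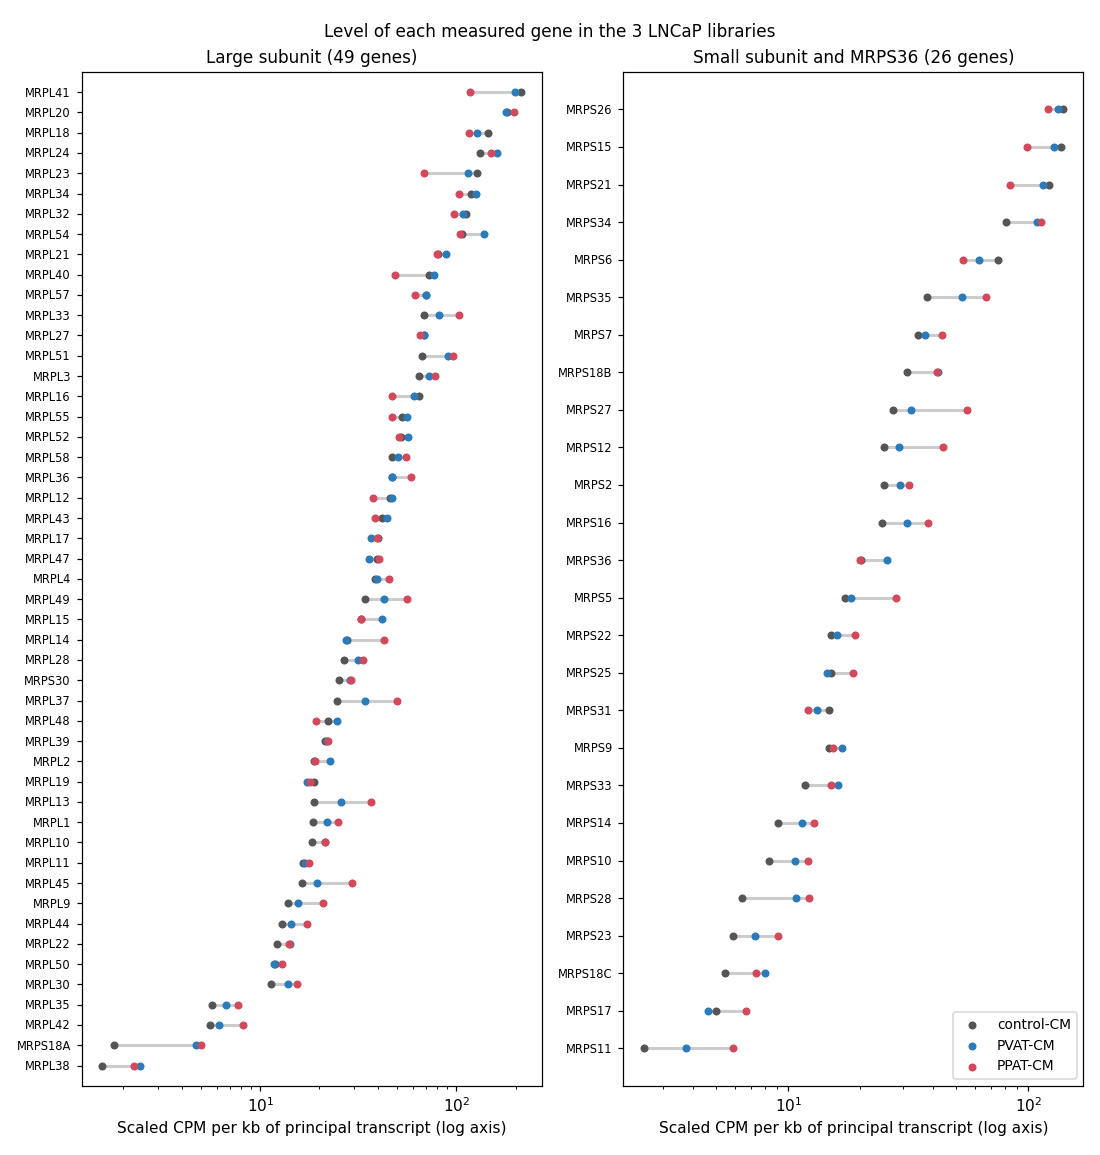
Level of each of the 75 measured genes in the 3 libraries, in scaled CPM per kb of principal transcript on a log axis, with large subunit genes on the left and small subunit genes and MRPS36 on the right. Points are single libraries and grey lines join the lowest to the highest. At the bottom of both panels most PPAT-CM points lie to the right of control-CM, and near the top several, such as MRPL41 (212 in control-CM, 118 in PPAT-CM), lie to the left.

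Promoter windows, 250 bases before to 50 bases after the gene start, were given by RefSeq (GRCh38.p14) for 70 of the 78 genes. Short sequences bound by known regulators were searched on both strands. The ETS core CCGGAAG, recognised by factors such as GABP (also called nuclear respiratory factor NRF-2), was present in 29 of the 70 windows (41.4%), against 14.2% of 15843 protein-coding windows. The YY1 core AAGATGG was present in 23 (32.9%), against 6.40%, and 9 windows held both. The NRF1 core GCATGCG was in 7 windows (10.0% against 5.14%). Longer forms of these sites, of 11 and 10 letters, were in 10 windows for YY1 (14.3% against 1.37%) and in 8 for NRF1 (11.4% against 8.58%). CCAAT was in 20 (28.6% against 36.4%), and TATAAA, the TATA box, was in 3 (4.29% against 9.63%).

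The 120 bases before the start are shown for 5 genes with the ETS letters close to it, as examples whose ratios differed between media. They run 5′ to 3′ on the gene's strand, with CCGGAAG or its reverse complement CTTCCGG in capitals.
MRPS18A, chr6:43687792-43687911, minus strand: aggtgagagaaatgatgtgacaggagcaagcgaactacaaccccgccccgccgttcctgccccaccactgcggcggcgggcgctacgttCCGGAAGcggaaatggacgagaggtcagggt
MRPS23, chr17:57850045-57850164, minus strand: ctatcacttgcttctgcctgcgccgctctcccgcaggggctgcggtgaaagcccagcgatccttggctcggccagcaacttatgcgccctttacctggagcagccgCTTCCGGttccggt
MRPL33, chr2:27771599-27771718, plus strand: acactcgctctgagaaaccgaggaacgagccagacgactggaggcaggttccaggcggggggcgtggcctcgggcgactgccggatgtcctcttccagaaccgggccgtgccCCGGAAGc
MRPL58, chr17:75012550-75012669, plus strand: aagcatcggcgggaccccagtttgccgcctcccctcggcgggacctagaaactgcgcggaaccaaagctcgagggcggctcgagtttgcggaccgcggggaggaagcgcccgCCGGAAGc
MRPL54, chr19:3762562-3762681, plus strand: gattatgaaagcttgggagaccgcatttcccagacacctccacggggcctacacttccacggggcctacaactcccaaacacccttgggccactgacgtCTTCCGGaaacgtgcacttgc
The first capital lies at -31 in MRPS18A, -14 in MRPS23, -8 in MRPL33 and MRPL58 and -21 in MRPL54, where -1 is the last base before the start. The log2 ratios of PPAT-CM to control-CM of these genes, in the same order, were 1.46, 0.62, 0.59, 0.24 and -0.04. Genes with lower ratios, not printed here, held the letters as well. They lie at -11 in MRPL40 (log2 ratio -0.57) and MRPS21 (-0.54) and at -32 in MRPS31 (-0.29). In MRPL40 and MRPS21 all 120 bases before the start are annotated exon. The bases after the MRPS31 start were not found in its GENCODE transcripts. Other genes held the letters farther off, at -119 in MRPL51, -87 in MRPS22 and -71 in MRPS34. In some, such as MRPS12 and MRPS16, the letters lay in the window but not within the 120 bases. Over all measured genes with a window the median log2 ratio was 0.29 with the ETS letters (28 genes) and 0.24 without (39 genes). For PVAT-CM against control-CM it was 0.19 with and 0.08 without, and for PPAT-CM against PVAT-CM the order turned, to 0.06 with and 0.12 without. With the YY1 core the median for PPAT-CM against control-CM was 0.41 (21 genes) against 0.21 (46 genes) without it. In the same comparison it was 0.36 (8 genes) with the longer YY1 form against 0.24 (59 genes). With the NRF1 core it was -0.01 (7 genes) against 0.31 (60 genes), and with its longer form 0.34 (8 genes) against 0.24 (59 genes), so the order turned with the letters searched. With CCAAT it was 0.09 (20 genes) against 0.32 (47 genes). A match is a string of letters and not a measured binding site.

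In PPAT-CM the mitochondrial ribosomal protein transcripts were more often above control-CM than below it, by small amounts, and most of the more abundant ones were below it. At least 1.5-fold higher were 16 of 75 (21.3%), where 12.0% of the 12256 genes tested were. At least 1.5-fold lower were 2 (2.67%), where 8.71% of all genes were, and 57 lay between. The median log2 ratio was 0.24, against 0.03 over all genes tested and 0.05 over the 10970 protein-coding ones. It was above 0 in 50 of 75 (66.7%, against 54.8% of protein-coding genes), with quartiles at -0.05 and 0.52. Cytosolic ribosomal protein genes, of the other ribosome of the cell, had similar values, with 19 of 84 higher (22.6%), 1 lower and a median of 0.22.

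The scale decides how many genes pass. With total counts in place of TMM factors the number higher was 31, and the median of all genes was itself 0.27 in place of 0.03. With only the 52 measured genes that share under 10% of their exon bases with other genes it was 9, with 2 lower and a median of 0.11. Of these 52 genes 57.7% were above 0, against 54.8% of protein-coding genes. Of the 23 that share at least 10%, 87.0% were above 0, with 7 higher, 0 lower and a median of 0.43. So 7 of the 16 higher genes share exon bases to that extent, and not all of them are marked below. Over all 75 genes 4 were higher at 2-fold, where 3.93% of all genes were, and 0 lower, where 2.74% were. At a difference of at least 25% there were 33 higher (25.5% of all genes) and 8 lower (20.3%). In bulk RNA fewer cells of a kind and less RNA per cell cannot be told apart.

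Small subunit genes had the higher median. Of 25 measured small subunit genes 8 were at least 1.5-fold higher (32.0%) and 0 lower, with a median log2 ratio of 0.42. Of 49 large subunit genes 8 were higher (16.3%) and 2 lower (4.08%), with a median of 0.12. Of all genes tested 12.0% were higher and 8.71% lower. By ancestry the median was 0.43 for small subunit proteins with a bacterial counterpart and 0.39 for those without, and in the large subunit it was 0.11 and 0.21. The log2 ratio of summed counts, which weights abundant genes, differed more by ancestry in the small subunit, at 0.05 with and 0.42 without a bacterial counterpart, and was 0.03 for both large subunit groups. The summed level went from 1329 to 1567 scaled CPM for the small subunit and from 2997 to 3062 for the large one, between control-CM and PPAT-CM.

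**Figure D2:**
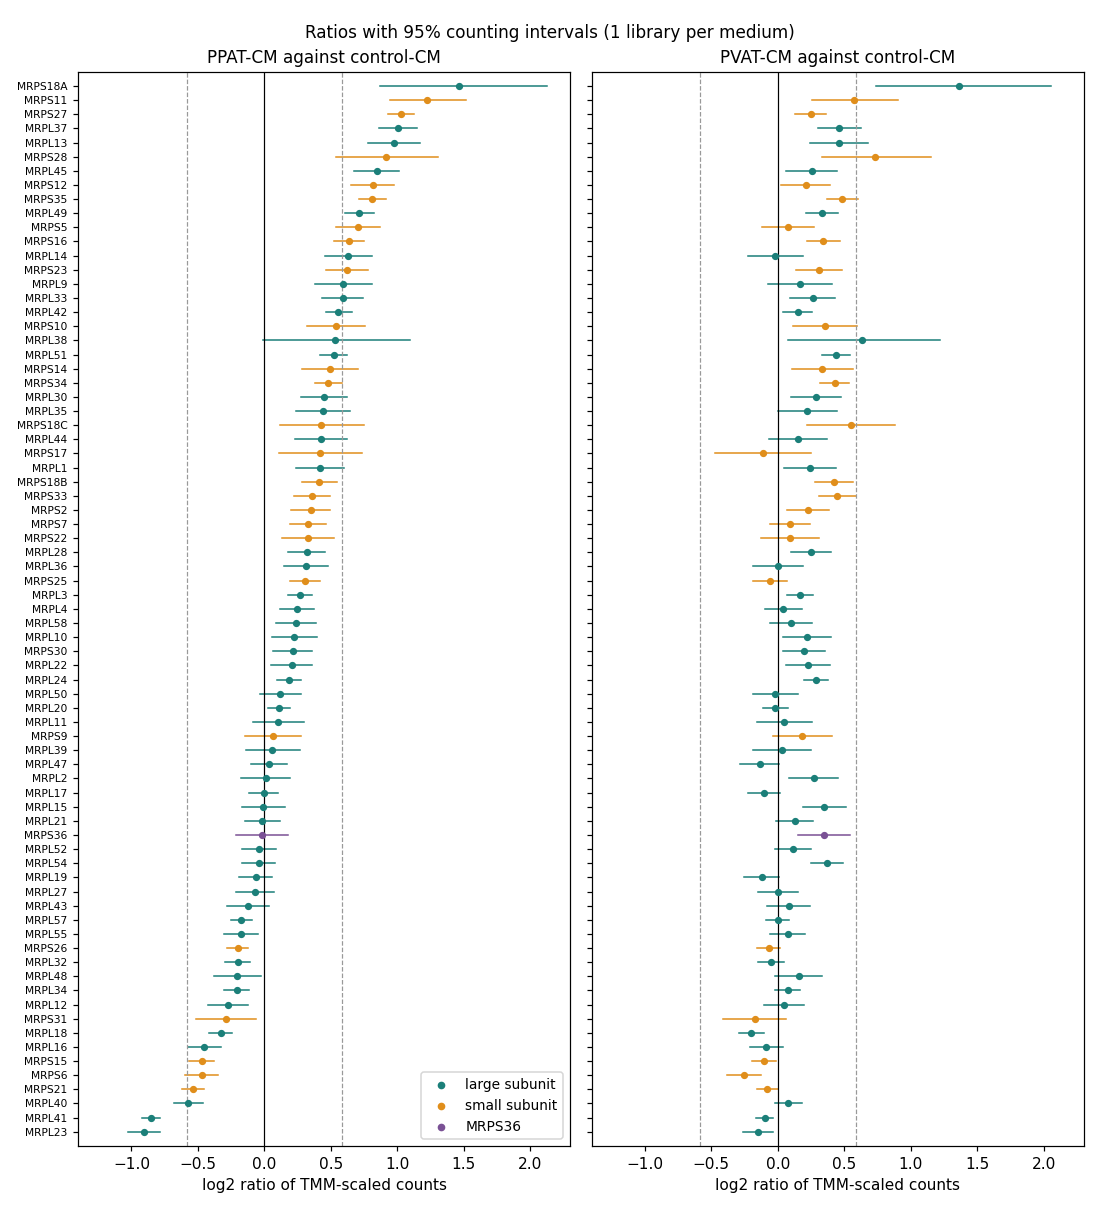
The log2 ratio of TMM-scaled counts for each of the 75 measured genes, in the order of the PPAT-CM ratio, for PPAT-CM (left) and PVAT-CM (right) against control-CM, with lines for the 95% counting interval and dashes at 1.5-fold. In the left panel 16 genes lie right of the dashes and 2 left of them, and in the right panel 3 and 0.

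Among small subunit genes the protein of the platform, MRPS11 (ENSG00000181991, chr15:88467453-88480773, GRCh38), had the largest ratio. Its counts were 139, 195 and 394, which made the scaled PPAT-CM value 2.34-fold that of control-CM (95% counting interval 1.92 to 2.86). The PVAT-CM library lay between the other two.

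MRPS27 (ENSG00000113048, chr5:72219409-72320646), which belongs to the pentatricopeptide repeat proteins that bind RNA, had 1154, 1287 and 2854 counts. It was 2.04-fold higher in PPAT-CM (1.90 to 2.19). In PVAT-CM it was 1.19-fold that of control-CM (1.10 to 1.29), so PPAT-CM stood above both.

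MRPS12, a protein of the decoding centre, with 463, 503 and 988 counts, was 1.76-fold higher (1.57 to 1.97), and shares at least 10% of its exon bases with other genes. MRPS5, which lines the path of the messenger RNA in bacterial ribosomes, had 434, 430 and 857 and was 1.63-fold higher (1.45 to 1.83). In PVAT-CM their ratios to control-CM were 1.16 (1.02 to 1.31) and 1.05 (0.920 to 1.21), and PPAT-CM was the high library in both. MRPS35, a mitochondria-specific protein, had 1088, 1432 and 2318 and was 1.76-fold higher (1.63 to 1.89). MRPS28, related to bacterial S1, had few counts (83, 130 and 190) and a ratio of 1.89 (1.45 to 2.47), and 35.8% of its exon bases lie in another gene, AC036214.3, whose own row was at 0. In both PVAT-CM lay in the middle. MRPS16 (984, 1172 and 1851 counts) was 1.55-fold higher (1.44 to 1.68), and MRPS23 (501, 583 and 936), shown above with its promoter, was 1.54-fold higher (1.38 to 1.72).

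Among large subunit genes MRPS18A (ENSG00000096080, chr6:43671303-43687791), 1 of 3 human relatives of bacterial S18, had the largest ratio and very few reads. Its counts were 29, 71 and 98, a ratio of 2.79 to control-CM (1.83 to 4.38). Control-CM was low and the adipose media were alike. Of its exon bases 47.0% lie opposite RSPH9, whose row had 8, 10 and 8 counts.

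MRPL37 (ENSG00000116221, chr1:54184041-54225464), a mitochondria-specific protein, with 556, 720 and 1351 counts, was 2.00-fold higher in PPAT-CM (1.81 to 2.22). MRPL13, which has a bacterial counterpart, had 309, 400 and 737 and was 1.97-fold higher (1.72 to 2.25). MRPL45, which lies at the tunnel exit and ties the ribosome to the inner membrane, had 423, 474 and 921 and was 1.80-fold higher (1.60 to 2.02). In each of these PPAT-CM held the highest scaled level and control-CM the lowest. MRPL49 had 1045, 1237 and 2078 counts (1.64-fold, 1.52 to 1.77). MRPL14, a protein at the interface of the subunits, had 402, 373 and 756 (1.55-fold, 1.37 to 1.76). MRPL9 and MRPL33 were just past the threshold. MRPL9 had 273, 288 and 500 counts (1.51-fold, 1.30 to 1.76) and MRPL33 had 537, 605 and 980 (1.51-fold, 1.35 to 1.68). MRPL42 was just short of it, with 1319, 1374 and 2354 counts (1.47-fold, 1.38 to 1.58).

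The lower transcripts were among the most abundant. MRPL23 (ENSG00000214026, chr11:1947278-1984522), a tunnel exit protein, was counted 1424, 1205 and 920 times and was 1.88-fold lower in PPAT-CM than in control-CM (1.73 to 2.04). MRPL41 (ENSG00000182154, chr9:137551199-137552555) had 4067, 3566 and 2731 and was 1.81-fold lower (1.72 to 1.90). PPAT-CM was the low library in both. MRPL40 (1530, 1518 and 1246 counts) was 1.49-fold lower (1.38 to 1.61), just short of the threshold, and MRPS21 (2709, 2408 and 2260) was 1.45-fold lower (1.37 to 1.54). The relatives of bacterial S6 and S15 were also lower: MRPS6 (1120, 884 and 978) by 1.39-fold (1.27 to 1.51) and MRPS15 (2097, 1831 and 1832) by 1.39-fold (1.30 to 1.48).

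Further genes were named whatever their ratio. MRPL12, a protein of the stalk that recruits translation factors, with 711, 690 and 713 counts, was 1.21-fold lower in PPAT-CM (1.09 to 1.34). MRPL58, a peptidyl-tRNA hydrolase built into the ribosome, had 636, 640 and 909 and was 1.18-fold higher (1.06 to 1.31). Both lay within 1.5-fold. MRPL44, related to RNase III, had 342, 357 and 557 counts (1.34-fold higher, 1.17 to 1.54), and MRPL36 had 490, 461 and 738 (1.24-fold higher, 1.11 to 1.40). MRPS30 had 639, 688 and 898 (1.16-fold higher, 1.05 to 1.28). The other relatives of bacterial S18 were nearer to 1 than MRPS18A. MRPS18B had 730, 919 and 1179 counts (1.33-fold higher, 1.21 to 1.46) and MRPS18C had 136, 187 and 222 (1.35-fold higher, 1.08 to 1.68). MRPS36, outside the ribosome, had 394, 471 and 472 (1.01-fold lower, 0.883 to 1.16).

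In PVAT-CM the differences from control-CM were smaller, and most genes were slightly above it. At least 1.5-fold higher were 3 of 75, where 3.15% of all genes tested were, and 0 were lower, where 3.49% of all genes were. At 2-fold 1 was higher (0.465% of all genes) and 0 lower (0.441%), and at a difference of 25% 19 were higher (13.6%) and 0 lower (12.2%). The median log2 ratio was 0.16, against 0.02 over all genes, and 55 of 75 were above 0 (73.3%). For the cytosolic ribosome's 84 genes the median was 0.32, and 92.9% were above 0. The large subunit median was 0.13 with 2 higher, and the small subunit median was 0.22 with 1 higher. The 3 genes past the threshold had low counts and exons shared with other genes, and with genes that share under 10% the number was 0, as it was for genes with a mean of at least 200 counts.

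They were MRPS18A, 2.60-fold higher (1.67 to 4.16), MRPS28, 1.67-fold higher (1.26 to 2.22), and MRPL38, a protein of the central protuberance with 45, 66 and 79 counts, 1.56-fold higher (1.05 to 2.33). The counting interval of MRPL38 reached nearly to 1. Next came MRPS11 at 1.49-fold (1.19 to 1.87), MRPS18C at 1.46-fold (1.17 to 1.84) and MRPS35 at 1.40-fold (1.29 to 1.52). MRPS36 was 1.27-fold higher (1.11 to 1.46), MRPS18B 1.34-fold (1.21 to 1.48), and MRPL12 was 1.03-fold higher (0.928 to 1.15). The lowest ratios were small: MRPS6 was 1.19-fold lower (1.09 to 1.30), MRPL18 1.15-fold (1.08 to 1.22), MRPS31 1.13-fold (0.959 to 1.33), MRPL23 1.11-fold (1.03 to 1.20), MRPL47 1.10-fold (0.992 to 1.22) and MRPL19 1.09-fold (0.992 to 1.19). For MRPS31, MRPL47 and MRPL19 the counting interval held 1.

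Between PPAT-CM and PVAT-CM the genes moved both ways around a median near 0. At least 1.5-fold higher in PPAT-CM were 6 of 75, where 8.56% of all genes were, and 3 were lower, where 6.07% were. The median log2 ratio was 0.07, against 0.02 over all genes, and the log2 ratio of summed counts was -0.01. The large subunit had a median of 0.05 and the small subunit 0.18, and with genes that share under 10% of exon bases the small subunit median was 0.02. The upper quartile scaling gave 3 higher. At 2-fold there were 0 higher (2.45% of all genes) and 0 lower (1.47%), and at a difference of 25% 15 higher (20.3%) and 10 lower (16.4%).

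The higher genes were MRPS27 (1.72-fold, 1.61 to 1.84), MRPL14 (1.57-fold, 1.39 to 1.78), MRPS11 (1.57-fold, 1.32 to 1.87), MRPS5 (1.55-fold, 1.37 to 1.74), MRPS12 (1.52-fold, 1.37 to 1.70) and MRPL45 (1.51-fold, 1.35 to 1.69). Of these 6, 4 belong to the small subunit. The lower ones were all of the large subunit: MRPL23 (1.69-fold, 1.55 to 1.84), MRPL41 (1.68-fold, 1.60 to 1.77) and MRPL40 (1.57-fold, 1.46 to 1.69). They were 6.12% of its 49 measured genes, near the 6.07% of all genes that were lower. After them came MRPS21 (1.37-fold lower, 1.30 to 1.46), MRPL54 (1.33-fold, 1.23 to 1.44) and MRPS15 (1.29-fold, 1.21 to 1.38). This comparison and the ones above share libraries, so a high or low library counts in 2 of them.

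**Figure D3:**
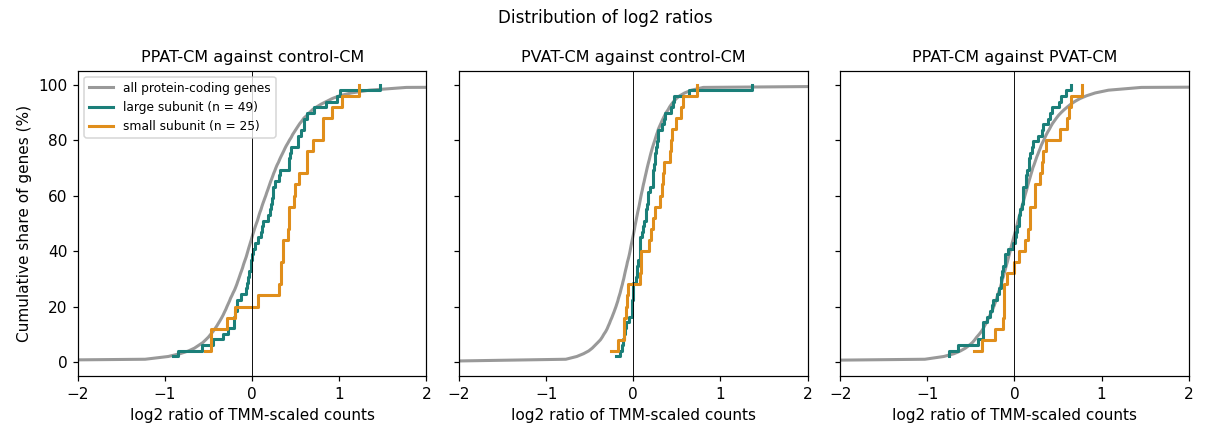
Cumulative share of genes (%) against the log2 ratio in the 3 comparisons, for 49 large subunit genes, 25 small subunit genes and all protein-coding genes. In PPAT-CM against control-CM the small subunit curve is shifted right (median 0.42) and the large subunit curve less so (0.12).

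The ratio moved with the abundance of the transcript. To keep the level apart from the ratio, genes were ordered by their level per kb in the library that was not part of the comparison. For PPAT-CM against control-CM, in 3 groups of 25 genes, the median log2 ratio was 0.44 in the low group (2.45 to 19.5 scaled CPM per kb in PVAT-CM), 0.31 in the middle group (21.4 to 47.1) and -0.17 in the high group (50.4 to 198). Above 0 were 23, 19 and 8 genes. Protein-coding genes, split into 3 groups by their own levels, had medians of 0.07, 0.05 and 0.03. Their groups lay at other levels: up to 5.27, 5.27 to 16.2 and 16.2 to 24669 scaled CPM per kb. The highest of them spans both the middle and the high group above, so genes of equal level were not compared. Both genes at least 1.5-fold lower lay in the high group.

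For PVAT-CM against control-CM, ordered by PPAT-CM, the medians went from 0.23 over 0.17 to 0.07. For PPAT-CM against PVAT-CM, ordered by control-CM, they went from 0.18 over 0.12 to -0.15. Across the 75 genes, which are not independent replicates, Spearman's rho of level and ratio was -0.54, -0.30 and -0.49 in the 3 comparisons, where over 10970 protein-coding genes it was -0.06, 0.11 and -0.16. It was -0.56, -0.25 and -0.60 in the 52 genes that share under 10% of exon bases. Cytosolic ribosomal protein genes, ordered the same way, had -0.09, 0.19 and -0.28 (84 genes). Nuclear genes of respiratory chain subunits, with -0.38, 0.01 and -0.50 (79 genes), were nearer to the mitochondrial ribosomal proteins in both comparisons with PPAT-CM.

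Transcript length moved with the ratio too. Spearman's rho of principal transcript length with the ratio of PPAT-CM to control-CM was 0.36 over the 75 genes and -0.04 over protein-coding genes. The libraries also differed in the mitochondrial share of counts given above, and the part of length, RNA quality or library composition in the pattern was not tested.

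**Figure D4:**
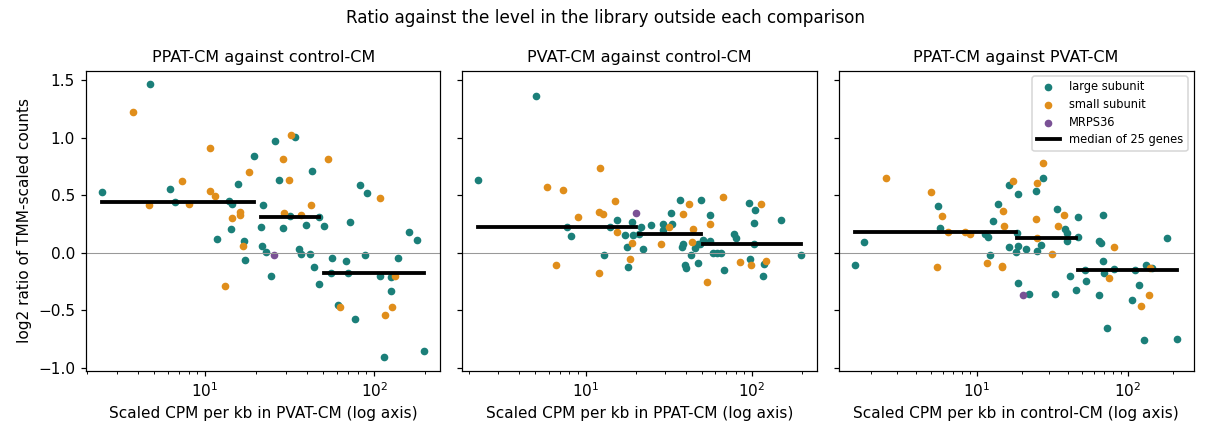
The log2 ratio of each of the 75 measured genes against its level (scaled CPM per kb of principal transcript, log axis) in the library outside the comparison, with black bars for the median of each group of 25 genes. In PPAT-CM against control-CM the bars step down from 0.44 over 0.31 to -0.17.

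Some of the genes start head to head with another gene. On the GENCODE annotation 29 of the 78 have a protein-coding gene on the other strand that starts within 1000 bases. In 1 case both are mitochondrial ribosomal protein genes: MRPS11 and MRPL46 start 34 bases apart. MRPS11 was 2.34-fold higher in PPAT-CM, as given above, while MRPL46, with 42 and 55 counts, had a ratio of 1.08 (0.710 to 1.65). Of 28 partner genes outside the family 22 were measured, with a median log2 ratio of 0.07 for PPAT-CM against control-CM, 1 higher and 1 lower, where 12.0% and 8.71% of all genes were. The higher one was OAZ3, next to MRPL9, and the lower one PNPLA7, next to MRPL41, with log2 ratios of 0.90 and -0.95. Just short of the threshold were PTCD2, next to MRPS27 (0.58), and EME2, next to MRPS34 (-0.58).

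Other genes of mitochondrial translation are set against the same shares of all genes, 12.0% higher and 8.71% lower in PPAT-CM than in control-CM. Of 5 ribosomal subunits with other names 0 were higher in PPAT-CM than in control-CM and 1 was lower: GADD45GIP1, of the large subunit, with 2983, 2522 and 2174 counts, was 1.66-fold lower (1.57 to 1.76). DAP3, a GTP-binding small subunit protein, had 1234, 1368 and 2118 (1.42-fold higher, 1.32 to 1.52).

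Of 26 assembly factors 25 were measured, with 4 higher (16%), 0 lower and a median log2 ratio of 0.07. MALSU1, which binds the large subunit at MRPL14 and keeps the subunits apart, with 295, 303 and 624 counts, was 1.74-fold higher (1.52 to 2.01). In both MALSU1 and MRPL14 the PPAT-CM library was the high one. MRM3, which methylates the large ribosomal RNA, had 134, 192 and 269 (1.66-fold, 1.34 to 2.05), and was also past 1.5-fold in PVAT-CM (1.52-fold, 1.22 to 1.92). The GTPase NOA1 had 594, 677 and 1105 (1.53-fold, 1.39 to 1.70). The methyltransferase MRM2, with 5, 1 and 1 counts, was not measured.

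Of 14 translation factors 13 were measured, with 2 higher (15.4%), 0 lower and a median of 0.28. The elongation factor GFM1 with 605, 756 and 1337 counts, was 1.82-fold higher (1.65 to 2.01). TACO1, needed to translate the COX1 messenger RNA, had 323, 376 and 672 (1.72-fold, 1.5 to 1.97). Both followed the order control-CM, PVAT-CM, PPAT-CM.

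Of 10 regulators of mitochondrial gene expression 9 were measured, with 2 higher (22.2%), 0 lower and a median of 0.23. MYC, a transcription factor known to drive ribosome production, with 1800, 1987 and 3905 counts, was 1.79-fold higher (1.69 to 1.89). The coactivator PPARGC1B had 48, 57 and 99 (1.70-fold, 1.19 to 2.45), and its relative PPARGC1A had 0, 7 and 2 and was not measured.

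The RNAs that come from the mitochondrial chromosome were on the other side. MT-RNR1, the ribosomal RNA of the small subunit, with 241598, 143384 and 113653 counts, was 2.58-fold lower in PPAT-CM (2.56 to 2.60) and 1.58-fold lower in PVAT-CM (1.57 to 1.59). MT-RNR2, of the large subunit, had 1256682, 795948 and 739180 and was 2.06-fold lower in PPAT-CM (2.06 to 2.07). The libraries were made with an mRNA kit. The median of the 75 nuclear genes was above 0, while 25 of them, MRPL41, MRPL23 and MRPL40 among them, were below control-CM like the ribosomal RNAs. All 13 mitochondrial messenger RNAs passed 1.5-fold on the low side in PPAT-CM (median -1.29), as did 12 in PVAT-CM (median -0.70). As a share of all counts the 78 genes took 0.399% (Wilson 95% interval 0.396 to 0.402), 0.470% (0.466 to 0.473) and 0.505% (0.501 to 0.508). Of the counts outside the mitochondrial chromosome they took 0.577% (0.573 to 0.582), 0.596% (0.591 to 0.600) and 0.597% (0.593 to 0.601), so the shares of the adipose media overlapped there.

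**Figure D5:**
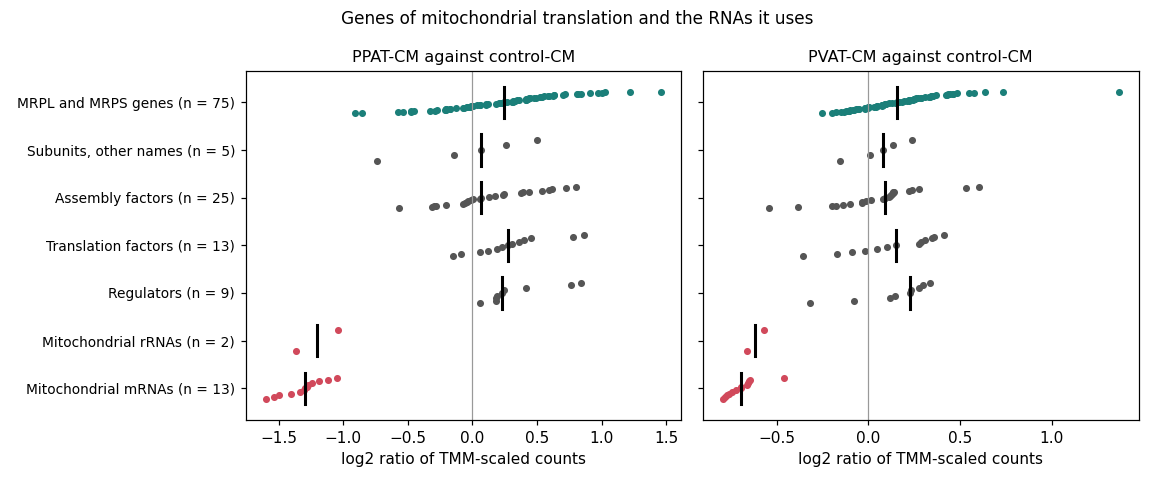
The log2 ratio of each measured gene in 7 groups of mitochondrial translation, for PPAT-CM and PVAT-CM against control-CM, with black bars at the medians. For PPAT-CM the bar of the MRPL and MRPS genes is at 0.24 and that of the 13 mitochondrial messenger RNAs at -1.29.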

How the data were processed

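The authors deposited 1 table of whole-number read counts per gene for 3 LNCaP libraries, not normalized. Per the submitters' processing notes they used FastQC, Trimmomatic, HISAT2, featureCounts and edgeR with GRCh38, with versions, annotation and strand setting not given in the sources used here. Counts of overlapping genes may therefore hold each other's reads. Gene names, types, coordinates and lengths came from GENCODE 29, which 58611 of the 58884 rows matched, and promoter windows came from RefSeq GRCh38.p14, matched by symbol. Counts were scaled with TMM factors (edgeR 4.0.16, R 4.3.3), which were 0.917, 1.01 and 1.08 for control-CM, PVAT-CM and PPAT-CM. Ratios used a pseudocount of 0.5, and 12256 genes passed a mean of 50 counts. Folds carry exact conditional binomial (Clopper-Pearson) 95% intervals. These and the limits for counts of 0, taken as 3 counts, cover counting error only, and as the labels name no molecular identifiers, reads may be copies of 1 molecule. With 1 library per medium no p-value was computed.

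The genes and lists were chosen with earlier results of these data known. Named were, in each comparison, the 6 highest and 6 lowest measured genes, all past 1.5-fold, 11 genes fixed by name, those below the filter, the 5 highest and 5 lowest by level, and up to 3 genes of each other list. MRPL42, the promoter examples, the head-to-head genes and DAP3 were chosen after their values were seen. The short YY1 and NRF1 cores replaced longer forms after the results of the longer forms had been seen, and both are given. The folds and intervals were tested on simulated counts that held counting error only and used the same scaling factors. Spread between cultures, copied reads, shared exons and errors of scaling were therefore not covered. Alternatives were other scalings, filters, thresholds, pseudocount and summaries, and Python 3.11.15 was used.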

Additional observations from a re-analysis of the deposited data

How the results depend on the processing

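Of 171 alternative values of the main counts and medians 150 stayed close to the main ones (counts within 1.5 times, medians inside the range set by the genes' counting intervals) and 21 moved. That range has the width of a single gene's interval and is not the uncertainty of a median. The fall of the PPAT-CM median from 0.24 to 0.11, with genes that share under 10% of exon bases, therefore counted as close. Lower filters and the other pseudocount could move little. Medians near 0 could change sign inside that range, and those that did are given last. Total counts without TMM gave 31 genes higher in PPAT-CM than in control-CM and 8 in PVAT-CM, with PPAT-CM medians of 0.48 for all members, 0.36 for the large and 0.66 for the small subunit and a PVAT-CM large subunit median of 0.26. The median of all genes then stood at 0.27 and 0.15. Upper quartile factors gave 4 lower in PPAT-CM against control-CM and 3 higher in PPAT-CM against PVAT-CM. At a threshold of 25% 33 were higher and 8 lower in PPAT-CM against control-CM, 19 were higher in PVAT-CM, and 15 were higher and 10 lower in PPAT-CM against PVAT-CM. At 2-fold these were 4, 0, 1, 0 and 0. A mean count of at least 200 left 0 higher in PVAT-CM. Restricting to genes that share under 10% of their exon bases, chosen after seeing the data, gave 9 higher in PPAT-CM and 0 in PVAT-CM against control-CM. The median of PPAT-CM against PVAT-CM changed sign as a ratio of summed counts (-0.01), and the large subunit's did so with upper quartile factors (-0.00) and summed counts (-0.05). Except where the construction shows it (a threshold or fewer genes), the cause was not tested. Of 360 alternative values of named genes 325 stayed within the counting interval and 35 moved. A change of sign was looked for only in genes past 1.5-fold in the main setting, and 0 of those reversed. That result was fixed in advance and says nothing about the genes. Each scaling shifts all genes by the same amount, smaller than the threshold, and a larger pseudocount cannot turn a sign. Changes of sign in genes nearer to a ratio of 1 were not counted separately. No paired analysis was possible because each medium had 1 library, and for the same reason no library could be left out. Depth limits genes such as MRPS18A and MRPL38, with under 50 counts in control-CM.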
